A study of Mus musculus with 4 samples.

Results

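Semaphorins are guidance ligands, and plexins and neuropilins are the receptors that read them. The genes described here are 31 of the 24421 in the RNA-seq table. They are all those whose symbol names a semaphorin of class 3 to 7, an A, B, C or D plexin, or a neuropilin. This rule by symbol uses no measured value, but the family was chosen with earlier results of these data known. The 31 genes are 20 ligands (7 *Sema3*, 6 *Sema4*, 2 *Sema5*, 4 *Sema6* and *Sema7a*) and 11 receptors (4 A plexins, 3 B plexins, *Plxnc1*, *Plxnd1*, *Nrp1* and *Nrp2*). RNA came from GFP+ cells that were sorted by FACS out of mouse neural tubes at E11.5. In the Prdm13 GFP allele, GFP sits in the *Prdm13* locus and marks the *Prdm13* lineage, and the allele takes PRDM13 away. Embryos carrying 1 such allele (Prdm13 GFP/+, the heterozygous mutant, called Het) served as controls for embryos carrying 2 (Prdm13 GFP/GFP, the homozygous mutant, called Homo), so both groups carry GFP and Het has already lost 1 copy of the gene. For each genotype the RNA of several embryos was combined into 1 pool, and 2 libraries were made from each pool as technical replicates. The standard deviations and p-values below therefore measure library preparation and sequencing, with no variation between embryos. The comparison asks how the levels of these ligands and receptors differ in sorted cells when both copies of *Prdm13* are lost.

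PRDM13 is a transcriptional repressor of the dorsal neural tube, where it acts in the choice between inhibitory and excitatory interneuron fates. Class 3 semaphorins are secreted and bind neuropilins, which have hardly any signalling part of their own inside the cell and pass the signal on through A plexins. Semaphorins of classes 4 to 6 span the membrane, Sema7A is held in it by a lipid anchor, and these mostly bind plexins directly. Plexins act through a cytoplasmic GTPase-activating domain that works on small G proteins of the Ras family, and their best known effect is the collapse or turning of growth cones. In the spinal cord they steer sensory, motor and commissural axons.

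The promoters of 4 members are shown because their RNA differed between the genotypes in opposite directions: *Sema3c* and *Nrp1* were lower in Homo, *Nrp2* and *Sema6d* higher. Each line is the 250 bases before a transcription start in RefSeq (build GRCm38.p6, plus strand), 5′ to 3′, at chr5:17574566-17574815 for *Sema3c*, chr8:128358823-128359072 for *Nrp1*, chr1:62703067-62703316 for *Nrp2* and chr2:124089719-124089968 for the first of 2 starts of *Sema6d*. The gene span of *Nrp1* given below begins before its window, and that of *Sema6d* begins inside its window. For these 2 genes the start used here is therefore not the first base of the span, and the windows reach into it. Capitals mark E-boxes, CANNTG, the core that basic helix-loop-helix factors such as PTF1A bind.
Sema3c: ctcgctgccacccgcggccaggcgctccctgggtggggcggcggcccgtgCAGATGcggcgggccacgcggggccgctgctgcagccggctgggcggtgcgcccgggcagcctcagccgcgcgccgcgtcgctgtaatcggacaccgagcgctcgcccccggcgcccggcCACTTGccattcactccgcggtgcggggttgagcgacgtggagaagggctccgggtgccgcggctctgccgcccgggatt
Nrp1: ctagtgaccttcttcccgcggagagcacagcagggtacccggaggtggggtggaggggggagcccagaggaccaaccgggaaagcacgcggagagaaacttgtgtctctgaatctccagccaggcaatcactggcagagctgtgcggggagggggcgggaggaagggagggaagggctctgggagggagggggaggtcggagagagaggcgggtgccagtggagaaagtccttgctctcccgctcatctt
Nrp2: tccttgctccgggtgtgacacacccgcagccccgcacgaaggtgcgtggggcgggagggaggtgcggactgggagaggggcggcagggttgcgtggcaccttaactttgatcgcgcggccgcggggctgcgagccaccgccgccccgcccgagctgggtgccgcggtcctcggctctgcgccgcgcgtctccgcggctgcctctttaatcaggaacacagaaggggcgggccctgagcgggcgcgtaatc
Sema6d: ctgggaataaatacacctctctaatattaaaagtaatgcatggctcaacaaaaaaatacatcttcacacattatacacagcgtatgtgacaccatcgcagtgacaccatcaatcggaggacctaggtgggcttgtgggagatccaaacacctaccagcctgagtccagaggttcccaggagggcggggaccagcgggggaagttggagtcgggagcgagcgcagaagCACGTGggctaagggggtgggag

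*Sema3c* held 2 E-boxes in this window, the first start of *Sema6d* held 1 and its second start, not shown, held 2 (CAAATG and CAGGTG), and the windows of *Nrp1* and *Nrp2* held none. Promoters of 26 of the 31 genes were in the table, 37 starts in all. CANNTG, which reads the same on both strands, was found in 19 of these 37 (51.4%), against 66.2% of all 32851 promoters of this length and 56.2% of those of genes tested here. Of the 10 receptor promoters 3 held it, and of the 27 ligand promoters 16. The narrower CAGCTG was in 6 of the 37 (16.2%), against 13.001% of all promoters. These matches are descriptions of a short window and say nothing of binding.

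The authors' table gives RPKM (reads on the exons of a gene relative to their length and to the size of the library, so that levels can be set beside each other across genes) after TMM normalization. Whole reads recovered from these values numbered 12362773 to 19656706 per library. *Prdm13* itself was listed at 113.9 and 126.8 RPKM in Het and at 309.5 and 324.5 RPKM in Homo, a log2 fold change of 1.40 (SE 0.0613, adjusted p = 3.63e-05), and this level is that of the whole locus, whose disrupted allele is still transcribed, so it does not check the genotype labels. Of 7 markers of the sorted dorsal lineage, 6 were called lower and *Ptf1a* higher (log2 fold change 1.81). Those lower were *Pax2* (-2.62), *Lhx1* (-2.48), *Lhx5* (-2.115), *Gsx2* (-1.72), *Gsx1* (-1.18) and *Lbx1* (-0.61). The summed level of the 7 was 494 to 554 RPKM in Het and 200.4 to 210.5 RPKM in Homo. The summed level of 6 pan-neuronal markers was 1627 to 1673 RPKM in Het and 1994 to 2076 RPKM in Homo, with 4 past the adjusted p and 1 called, *Stmn2* (log2 fold change 0.61). *Tubb3* (log2 fold change 0.34) made up most of that sum, and *Dcx* (-0.07) and *Map2* (-0.16) had lower values in Homo that did not pass. In sorted pools such as these, fewer cells of a type and less RNA per cell cannot be told apart. How far the composition of the sorted cells bears on the values below was not tested.

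Marker lists of other cells varied in level. Of 9 endothelial markers 3 reached the filter of the test (a mean of 1 RPKM in either genotype) and none passed the adjusted p in limma, though *Esam* (log2 fold change -0.82) had an unadjusted p of 0.0104, with a summed level of 6.24 to 7.66 RPKM in Het and 6.22 to 6.97 RPKM in Homo. None of 5 motor neuron or 6 myeloid markers reached it (summed levels at most 1.37 and 0.525 RPKM). Of 6 mesenchymal markers 1 reached it, and the list summed to 4.63 to 5.11 RPKM in Het and 3.48 to 3.61 RPKM in Homo. Of 5 markers of neural crest and dorsal root ganglion 2 reached it. *Foxd3*, which held most of the summed level (12.8 to 16.2 RPKM in Het and 7.56 to 8.13 RPKM in Homo), was called lower (log2 fold change -1.41). The floor plate list summed to 21.6 to 22.2 RPKM in Het and 15.8 to 16.3 RPKM in Homo and was nearly all *Ntn1* (log2 fold change -0.54, adjusted p = 0.00136), while *Shh*, *Foxa2* and *Foxa1* stayed under 0.5 RPKM. Of 7 erythroid markers *Hba-a1*, *Hba-a2*, *Hbb-bs* and *Hbb-bt* were listed at 0 and *Hbb-y* made up nearly all of the 24.1 to 28.8 RPKM. Why these globin genes were listed at 0 in every library was not tested, so the listing does not show that their RNA was absent. None of the 5 progenitor markers was called (1367 to 1405 RPKM in Het, 1402 to 1466 RPKM in Homo), but 3 passed the adjusted p in limma, *Sox2* lower (log2 fold change -0.48) and *Hes5* (0.42) and *Pax6* (0.26) higher.

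In Het the genes of this signalling system spanned a wide range of levels, and a few members made up most of the RNA on each side. Among receptors *Plxnb1*, the receptor of Sema4D, was highest at 60.5 ± 2.34 RPKM (SD, 2 libraries), followed by *Plxna1* at 42.9 ± 1.44 and *Plxnb2* at 42.7 ± 0.688, which overlapped, then *Plxna3* at 26.3 ± 1.24 and *Plxna2* at 23.5 ± 0.481. These 5 plexins held 96.9 ± 0.0964% of the summed plexin RPKM. *Nrp2* at 7.44 ± 0.245 RPKM lay below them, and *Nrp1*, *Plxna4*, *Plxnc1* and *Plxnd1* lay between 2.86 and 1.24 RPKM. Among ligands *Sema5b* at 55.0 ± 3.72 RPKM and *Sema6c* at 54.2 ± 3.19 RPKM were highest and overlapped, ahead of *Sema4c* at 33.1 ± 1.08 and *Sema4g* at 23.5 ± 0.788. *Sema5b*, *Sema6c* and *Sema4c* together held 59.5 ± 0.818% of the semaphorin RPKM. *Sema3f* at 16.4 ± 0.816 was the most abundant secreted semaphorin, and neighbours in the order from *Sema6d* (12.9 ± 0.323) to *Sema4b*, from *Sema4a* (5.31 ± 0.389) through *Sema7a* to *Sema6b*, and from *Sema6a* (4.05 ± 0.16) to *Sema3c* overlapped, among genes over 1 RPKM. The order in Homo was the same for the first 6 receptors, while *Plxnc1* passed *Nrp1* and *Plxna4*, *Sema6c* passed *Sema5b*, *Sema6d* passed *Sema3f*, *Sema7a* passed *Sema4a*, *Sema6a* passed *Sema6b*, and *Sema4d* and *Sema4f* passed *Sema3c*, with *Sema4f* also ahead of *Sema4d*.

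**Figure D1:**
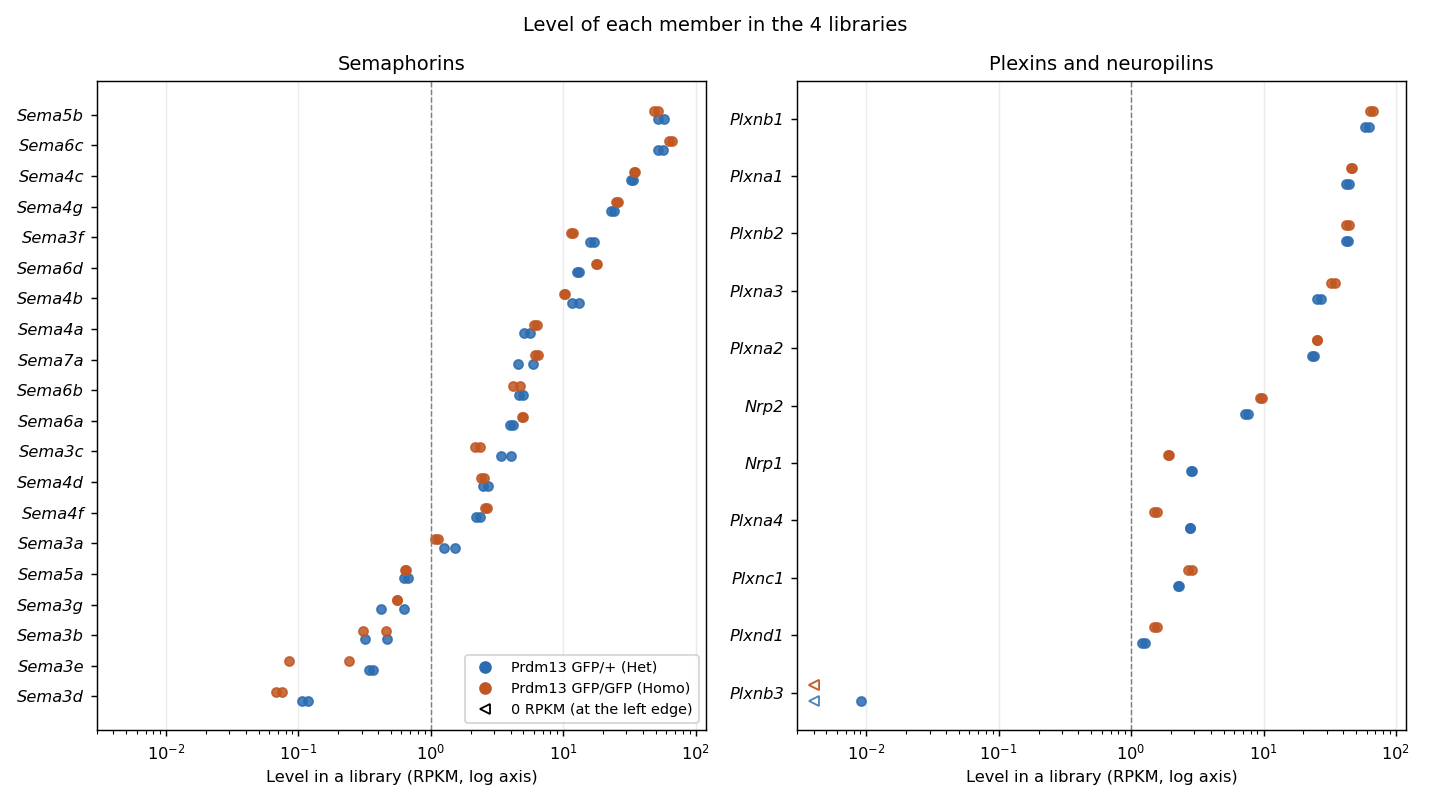
RPKM on a log axis of each of the 20 semaphorins (left) and 11 receptors (right) in the 2 Het (blue) and 2 Homo (orange) libraries, ordered by the mean in Het; the dashed line marks 1 RPKM, and open triangles at the left edge stand for 0. The points of Nrp1, Plxna4, Sema3c and Sema3f lie lower in Homo and those of Sema6d, Nrp2 and Plxna3 higher, while most other pairs lie close together.

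Of the 31 genes 25 averaged 1 RPKM or more in one genotype or both and were tested (15 ligands and 10 receptors). Against a threshold of adjusted p under 0.05 (limma, Benjamini-Hochberg over 12046 genes) and a fold of at least 1.5, none was called higher and 2 were called lower in Homo, *Plxna4* and *Sema3c*. That is 8% of 25, beside 6.33% of all genes tested (3.65% higher and 2.67% lower). An unadjusted p and limma voom on the recovered reads likewise gave 0 higher and 2 lower at this fold. At the adjusted p alone, 4 rose (*Sema6d*, *Nrp2*, *Plxna3* and *Sema6c*) and 4 fell (*Plxna4*, *Sema3c*, *Nrp1* and *Sema3f*), 32% of 25 beside 19.7% of all genes tested (9.76% higher and 9.95% lower). A fit with a library left out has 1 library in that genotype, and fewer of all genes were called whichever library went. A lost pass therefore does not show that a gene rests on that library. Over the 4 such fits the log2 fold change ran from -0.85 to -0.78 for *Plxna4* and from -0.81 to -0.58 for *Sema3c*. That of *Sema3c* was under 1.5-fold only without Het replicate 1. The other genes past the adjusted p kept their direction. Those higher ran from 0.20 (*Sema6c*) to 0.49 (*Sema6d*), and those lower from -0.56 (*Nrp1*) to -0.43 (*Sema3f*). With a pseudocount of 1 RPKM, 0 were called, as the fitted folds of *Plxna4* (-0.57 on the log2 scale) and *Sema3c* (-0.53) then missed 1.5-fold. With no adjustment, 12 of the 25 (48%) had a p under 0.05, beside 34.1% of all genes tested. The 2 libraries of one genotype lay wholly above or below those of the other for 22 of the 25 (15 higher and 7 lower in Homo), 88% beside 62.1% of all genes tested (31.7% higher and 30.3% lower).

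Of 15 ligands tested, 2 rose and 2 fell at the adjusted p (26.7%) and 1 was called, and of 10 receptors 2 rose and 2 fell (40%) and 1 was called. The difference between ligands and receptors was not tested. The median log2 fold change was 0.07 over the ligands (8 higher and 7 lower means) and 0.11 over the receptors (8 higher and 2 lower), beside 0.01 over all genes tested. The log2 fold changes ran from -0.70 to 0.46 among ligands and from -0.81 to 0.36 among receptors. By class, the means of all 3 class 3 ligands tested were lower in Homo (median log2 fold change -0.48) and those of 3 of the 4 class 6 ligands were higher (median 0.27).

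**Figure D2:**
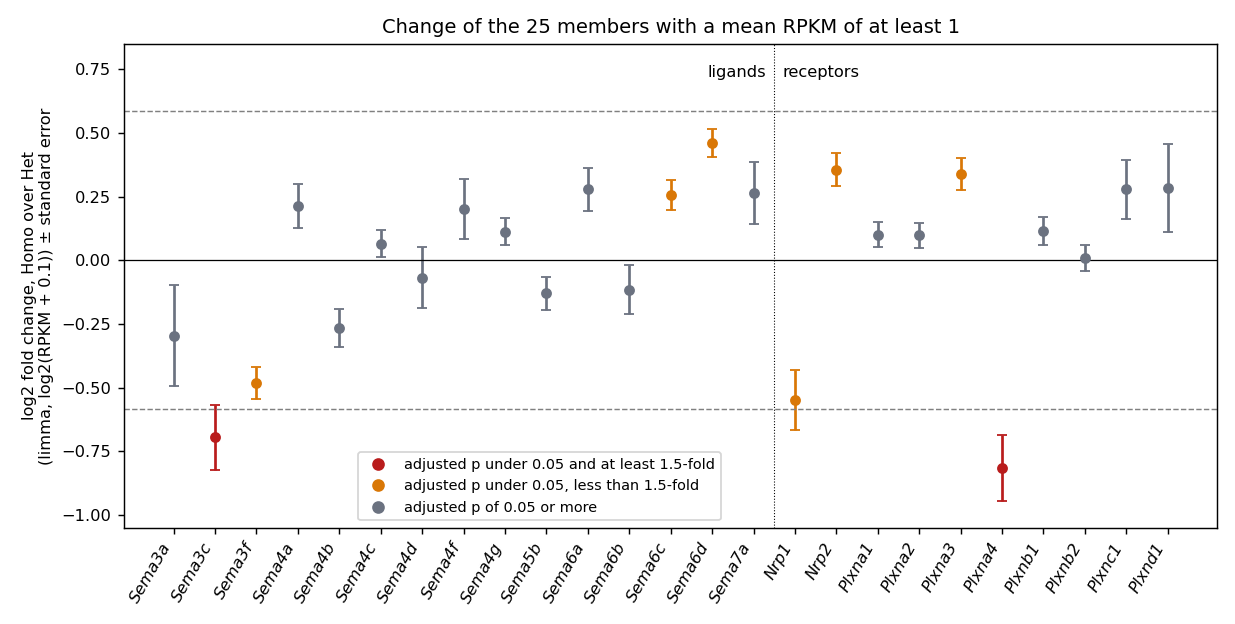
log2 fold change (Homo over Het, on log2(RPKM + 0.1)) with its standard error for the 15 ligands and 10 receptors tested; dashed lines mark 1.5-fold, and colours mark whether a gene passed the adjusted p and the fold. Only Sema3c and Plxna4 lie beyond the lower line with an adjusted p under 0.05, and no gene lies beyond the upper one.

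Of the 7 secreted class 3 semaphorins 3 were tested. Of these 2, *Sema3c* and *Sema3f*, fell at the adjusted p (66.7%, beside 9.95% of all genes tested). *Sema3c*, a ligand of both neuropilins that also acts in heart outflow and vessel development, had 4.03 and 3.41 RPKM in the Het libraries and 2.15 and 2.36 RPKM in the Homo libraries, from 160 to 310 reads. Both Homo values lay below both Het values, and the gene fell by 0.70 on the log2 scale (SE 0.127, adjusted p = 0.0127), 1.65-fold on the mean RPKM. The call held without Het replicate 2 (log2 fold change -0.81, adjusted p = 0.0429) and was lost without Het replicate 1 (adjusted p = 0.0837), without Homo replicate 1 (0.0804) and without Homo replicate 2 (0.0762). *Sema3f*, which repels axons through *Nrp2*, had 15.8 and 17.0 RPKM in Het and 11.47 and 11.92 RPKM in Homo. Its libraries did not overlap, it fell by 0.48 on the log2 scale (SE 0.063, adjusted p = 0.00382), and the adjusted p passed with any one library left out. *Sema3a*, the founding collapse factor that acts through *Nrp1*, was scarce at 1.52 and 1.27 RPKM in Het and 1.14 and 1.08 RPKM in Homo, and its log2 fold change of -0.30 did not pass (adjusted p = 0.344).

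The other 4 class 3 genes stayed below the filter and were not tested. *Sema3e*, the ligand that binds *Plxnd1* without a neuropilin, had 29 and 43 reads in Het and 27 and 8 in Homo (0.354 ± 0.0164 and 0.164 ± 0.111 RPKM). *Sema3d* had 8 and 14 reads in Het and 8 and 6 in Homo, and a difference was not detectable at this depth. *Sema3b* and *Sema3g* had near-equal means, at 0.393 and 0.385 RPKM and at 0.522 and 0.553 RPKM. In the genome 4 of the 7 class 3 genes (*Sema3d*, *Sema3a*, *Sema3e* and *Sema3c*) lie together at chr5:12383161-17730268 (GRCm38), and their means in Homo were 0.64, 0.799, 0.463 and 0.606 times those in Het. *Sema3b* and *Sema3f* neighbour each other at chr9:107597674-107710475, where the mean of *Sema3b* was 0.98 times and that of *Sema3f* 0.713 times that in Het.

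The neuropilins, the binding receptors for secreted semaphorins and for VEGF, moved in opposite directions. *Nrp1* (chr8:128358591-128505476), which binds Sema3A, had 2.85 and 2.88 RPKM in Het and 1.91 and 1.94 RPKM in Homo, from 157 to 312 reads. The genotypes were well apart, and *Nrp1* fell by 0.55 on the log2 scale (SE 0.118, adjusted p = 0.0224), 1.49-fold on the mean RPKM and so just inside the fold threshold. *Nrp2* (chr1:62703317-62818692), which binds Sema3F, had 7.27 and 7.61 RPKM in Het and 9.73 and 9.38 RPKM in Homo, and rose by 0.36 on the log2 scale (SE 0.0662, adjusted p = 0.0134). Neither passed once a library was taken out: over the 4 such fits the adjusted p was 0.0908 to 0.103 for *Nrp1* and 0.0716 to 0.0944 for *Nrp2*, and *Nrp1* also missed the threshold with no filter on RPKM (adjusted p = 0.0513). Within a library *Nrp2* exceeded *Nrp1* by a ratio of 2.55 and 2.65 in Het and 5.09 and 4.84 in Homo, a log2 difference of 0.93 in the ratio, and *Nrp1* went from 27.8 ± 0.513% to 16.8 ± 0.503% of neuropilin RPKM. *Nrp1* is also an endothelial gene. The summed level of the endothelial markers, given above, overlapped between the genotypes. Of the 3 endothelial markers tested, *Esam* was lower in Homo (log2 fold change -0.82) without overlap, and 2 had higher means. How far endothelial RNA bears on the value of *Nrp1* was not tested.

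The A plexins, the signalling partners of neuropilins, differed among themselves. *Plxna4* (chr6:32144543-32588192), a receptor for Sema3A with neuropilin and for class 6 semaphorins without it, had 2.77 and 2.78 RPKM in Het and 1.573 and 1.498 RPKM in Homo, from 258 to 641 reads. Its libraries were far apart, and it fell by 0.81 on the log2 scale (SE 0.13, adjusted p = 0.00788), 1.81-fold on the mean RPKM and the largest difference of the 25. Without Homo replicate 2 the log2 fold change was -0.78 and the adjusted p 0.0606, and it passed with any of the other libraries left out. *Plxna3*, the partner of *Nrp2* for Sema3F, had 25.4 and 27.2 RPKM in Het and 32.1 and 34.5 RPKM in Homo, and rose by 0.34 (log2, SE 0.062, adjusted p = 0.0129). The rise missed the threshold without Het replicate 1 (adjusted p = 0.0781), without Homo replicate 2 (0.11) and with eBayes run without a trend (0.0527). *Plxna1*, which also serves Sema6D, had 41.9 and 43.9 RPKM in Het and 45.6 and 46.4 RPKM in Homo (log2 fold change 0.10, adjusted p = 0.209). *Plxna2*, a receptor of Sema6A, had 23.2 and 23.9 RPKM in Het and 25.1 and 25.3 RPKM in Homo (log2 fold change 0.10, adjusted p = 0.229). Of the summed A plexin RPKM, *Plxna4* held 2.91 ± 0.092% in Het and 1.45 ± 0.0822% in Homo, and *Plxna3* 27.5 ± 0.387% and 31.4 ± 0.922%.

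*Plxna3* lies on the X chromosome, and the pools differed in sex-linked RNA. *Xist*, the RNA of the inactive X in females, had 22.4 and 21.6 RPKM in Het and 6.55 and 6.03 RPKM in Homo. Its log2 fold change was -1.79. The Y-linked *Eif2s3y* and *Kdm5d* were higher in Homo (0.60 and 0.45 on the log2 scale). The Y-linked *Ddx3y* (0.14) and *Uty* (0.20) had higher means that did not pass the adjusted p in limma (0.176 and 0.215). Of these 5 sex-linked markers 1 was called higher, *Eif2s3y*, and 1 lower, *Xist*. Over the 426 X-linked genes tested the median log2 fold change was -0.03, with 37 past the adjusted p higher and 50 lower. Over the 11597 autosomal genes tested it was 0.01, with 1136 higher and 1149 lower. Of all genes tested, 9.76% passed higher and 9.95% lower. The part of the pools' sex in the value of *Plxna3* was not tested. The other X-linked member, *Plxnb3*, had 1 read in 1 Het library and 0 in the other 3, where a count of 0 allows up to 3 reads.

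Class 6 semaphorins are transmembrane ligands that can also signal back into the cell that bears them. Of their 4 members 2 rose at the adjusted p (50%, beside 9.76% of all genes tested). *Sema6d* (chr2:124089943-124667789), which acts with *Plxna1*, had 12.7 and 13.2 RPKM in Het and 18.1 and 17.6 RPKM in Homo. Its genotypes did not overlap, and it rose by 0.46 on the log2 scale (SE 0.0564, adjusted p = 0.00302), 1.38-fold on the mean RPKM, with the adjusted p passing whichever library was left out. *Sema6c*, the most abundant of the class, had 51.9 and 56.5 RPKM in Het and 62.9 and 66.7 RPKM in Homo, and rose by 0.26 on the log2 scale (SE 0.0598, adjusted p = 0.0285). With any one library left out the adjusted p missed the threshold (0.0542 to 0.185 over the 4 fits), as it did without a trend (0.0934). *Sema6a*, a ligand of *Plxna2* and *Plxna4*, had 4.16 and 3.93 RPKM in Het and 4.91 and 4.95 RPKM in Homo, and its log2 fold change of 0.28 narrowly missed (adjusted p = 0.0629). *Sema6b* had 4.65 and 5.01 RPKM in Het and 4.21 and 4.71 RPKM in Homo, overlapping ranges (log2 fold change -0.11, adjusted p = 0.439). The summed level of the pan-neuronal markers was higher in Homo too, and its part in these rises was not tested.

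None of the class 4, 5 and 7 ligands passed the adjusted p in limma. Of the 8 tested, 2, *Sema4b* and *Sema4a*, had an unadjusted p under 0.05, beside 34.1% of all genes tested. *Sema4b* came nearest, with 11.6 and 13.1 RPKM in Het and 10.2 and 10.4 RPKM in Homo (log2 fold change -0.26, SE 0.0746, adjusted p = 0.0517), and it passed with median ratio scaling (adjusted p = 0.0477) and in limma voom on the recovered reads (adjusted p = 0.0071). *Sema4c*, the ligand of *Plxnb2*, had 32.3 and 33.9 RPKM in Het and 34.2 and 35.1 RPKM in Homo (log2 fold change 0.07, adjusted p = 0.414). *Sema4g* (0.11), *Sema4f* (0.20) and *Sema4a* (0.22) had small positive log2 fold changes with adjusted p of 0.197, 0.283 and 0.135, and *Sema4d*, the ligand of *Plxnb1* known also from immune cells, gave -0.07 with overlapping libraries. *Sema5b*, one of the class whose extracellular thrombospondin repeats bind matrix sugars, had 52.3 and 57.6 RPKM in Het and 48.4 and 52.1 RPKM in Homo (log2 fold change -0.13, adjusted p = 0.219). Its partner in the class, *Sema5a*, stayed under the filter with equal means within their spread (0.652 ± 0.0283 and 0.646 ± 0.0043 RPKM). *Sema7a*, the lipid-anchored ligand of *Plxnc1* and of integrins, had 4.59 and 5.88 RPKM in Het and 6.44 and 6.09 RPKM in Homo, where the Het libraries lay further apart than the means of the genotypes (log2 fold change 0.26, adjusted p = 0.183).

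None of the other plexins passed the adjusted p in limma, and *Plxnc1* alone had an unadjusted p under 0.05. *Plxnb1* had 58.8 and 62.1 RPKM in Het and 63.4 and 67.6 RPKM in Homo (log2 fold change 0.12, adjusted p = 0.196), and *Plxnb2* had 42.2 and 43.2 RPKM in Het and 42.1 and 43.9 RPKM in Homo (0.01, adjusted p = 0.921). *Plxnc1* had 2.26 and 2.29 RPKM in Het and 2.88 and 2.69 RPKM in Homo (log2 fold change 0.28, adjusted p = 0.145, and 0.0313 in voom). *Plxnd1*, the vascular plexin that receives Sema3E, had 1.26 and 1.21 RPKM in Het and 1.496 and 1.556 RPKM in Homo (log2 fold change 0.28, adjusted p = 0.302, and 0.0495 without a trend), from 101 to 168 reads per library.

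Summed within a library, the levels showed where the balance between classes lay. Class 3 semaphorins summed to 22.7 and 23.1 RPKM in Het and 16.1 and 16.4 RPKM in Homo, 0.709 times the Het mean. *Sema3f* alone held 71.6% of this sum in Het and 72.0% in Homo. The share of class 3 in all semaphorin RPKM went from 9.59 ± 0.31% to 6.58 ± 0.101%. Class 6 semaphorins summed to 73.4 and 78.5 RPKM in Het and 90.1 and 93.9 RPKM in Homo, 1.21 times the Het mean. *Sema6c* alone held 71.3% of that sum in Het and 70.4% in Homo. Class 4 summed to 78.0 and 80.3 RPKM in Het and 80.5 and 82.7 RPKM in Homo, and class 5, nearly all *Sema5b*, to 53.0 and 58.3 RPKM and 49.0 and 52.7 RPKM. The 20 semaphorins together overlapped between the genotypes, at 231.7 and 246.0 RPKM in Het and 242.1 and 251.8 RPKM in Homo. The 11 receptors together summed to 208.0 and 217.1 RPKM in Het and 225.9 and 234.7 RPKM in Homo, 1.08 times the Het mean. Semaphorin RPKM exceeded receptor RPKM by a ratio of 1.11 and 1.13 in Het and 1.07 and 1.07 in Homo. These sums carry no test, as 2 libraries per genotype leave 0.333 as the lowest p of an exact two-sided permutation test.

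**Figure D3:**
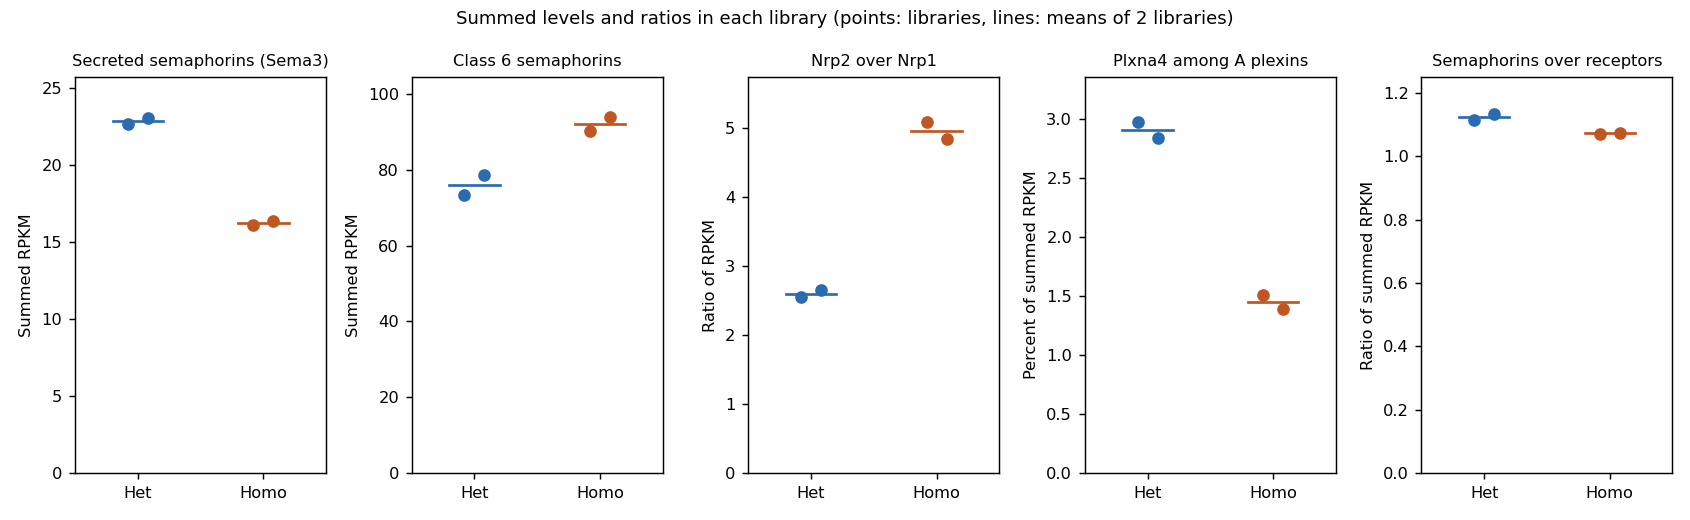
Summed RPKM of class 3 and of class 6 semaphorins, the ratio of Nrp2 to Nrp1, the percent of A plexin RPKM held by Plxna4, and the ratio of semaphorin to receptor RPKM in each library (points, with lines at the means of 2 libraries; axes start at 0). Sema3 goes from about 22.9 to 16.2 RPKM and Nrp2 over Nrp1 from 2.60 to 4.96, while the ratio of all semaphorins to all receptors changes from 1.12 to 1.07.

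Set beside their textbook receptors, some ligands and receptors differed in the same direction and others in opposite ones. *Sema3a* (-0.30 on the log2 scale, not past the test) and its receptor *Nrp1* (-0.55) were both lower, and so was *Plxna4* (-0.81). *Sema3f* fell (-0.48) while its receptors *Nrp2* (0.36) and *Plxna3* (0.34) rose. *Sema3c* fell (-0.70), with *Nrp1* lower and *Nrp2* higher among its receptors and *Plxnd1* at 0.28 without passing. *Sema6d* rose (0.46) beside a *Plxna1* of 0.10, and for *Sema6a* (0.28) the receptors gave 0.10 for *Plxna2* and -0.81 for *Plxna4*. *Sema4c* (0.07) and *Plxnb2* (0.01), and *Sema4d* (-0.07) and *Plxnb1* (0.12), showed small differences on both sides, none past the test. *Sema5b* was at -0.13 without passing, beside a *Plxna1* of 0.10 and a *Plxna3* that rose (0.34). *Sema7a* (0.26) and its receptors *Plxnc1* (0.28) and *Itgb1* (-0.01) did not pass. *Sema3e* (with *Plxnd1*) and *Sema5a* (with *Plxna1* and *Plxna3*) were under the filter and not tested. All of these values come from the same 4 libraries, and no pair was tested as a pair.

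Genes outside the family that act with these receptors were described list by list. Of 12 co-receptors and other semaphorin receptors, 8 were tested, 2 (25%, beside 3.65% of all genes tested) were called higher and none lower. They were *L1cam* and *Chl1*, which encode neuropilin-associated adhesion molecules. *L1cam* had 16.4 and 17.5 RPKM in Het and 25.9 and 25.4 RPKM in Homo (log2 fold change 0.59, adjusted p = 0.0011). *Chl1* had 8.92 and 8.57 RPKM in Het and 13.73 and 12.99 RPKM in Homo (log2 fold change 0.61, adjusted p = 0.00162). The adjusted p of both stayed under 0.05 with any library left out, but the log2 fold change missed 1.5-fold for *L1cam* without Het replicate 1 (0.55) or Homo replicate 1 (0.58) and for *Chl1* without Het replicate 2 (0.58) or Homo replicate 1 (0.57). *L1cam*, a partner of *Nrp1* for Sema3A, is X-linked like *Plxna3*, and *Chl1* is the close homologue on chromosome 6. Other adhesion molecule genes of the list, *Nrcam* (log2 fold change 0.05, adjusted p = 0.521) and *Cntn2* (-0.12, adjusted p = 0.147), did not pass in limma. *Itgb1*, the integrin chain through which Sema7A acts, was level at 34.8 and 33.2 RPKM in Het and 34.0 and 33.5 RPKM in Homo (log2 fold change -0.01).

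Of 33 effectors inside the cell, 31 were tested, and at the adjusted p 9 rose (29.0%, beside 9.76% of all genes tested) and 1 fell (3.23%, beside 9.95%). Their median log2 fold change was 0.10, beside 0.01 over all genes tested. Only the kinase gene *Fes* was called (1.75 and 1.74 RPKM in Het, 3.45 and 2.41 RPKM in Homo, log2 fold change 0.69, adjusted p = 0.0437). Its Homo libraries differed widely, and it passed with a library left out only in the fit without Homo replicate 2 (adjusted p = 0.0454, against 0.147 without Het replicate 1, 0.158 without Het replicate 2 and 0.167 without Homo replicate 1). The collapse mediators *Crmp1* (0.52) and *Dpysl2* (0.26), the kinases *Fyn* (0.36), *Pak1* (0.28) and *Limk1* (0.32), the activator of Cdk5 *Cdk5r1* (0.22), the small G protein *Rnd2* (0.32) and cofilin, *Cfl1* (0.20), rose on the log2 scale by less than 1.5-fold. *Arhgef12*, the exchange factor that joins B plexins to RhoA, fell by 0.24. Of the 4 VEGF genes tested, whose products also bind neuropilins or their partner receptors, *Vegfa* (log2 fold change -0.28, adjusted p = 0.0247) and *Vegfc* (-0.56, adjusted p = 0.012) fell by less than 1.5-fold and the other 2 did not pass. That is 50% of the 4, beside 9.95% of all genes tested.

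**Figure D4:**
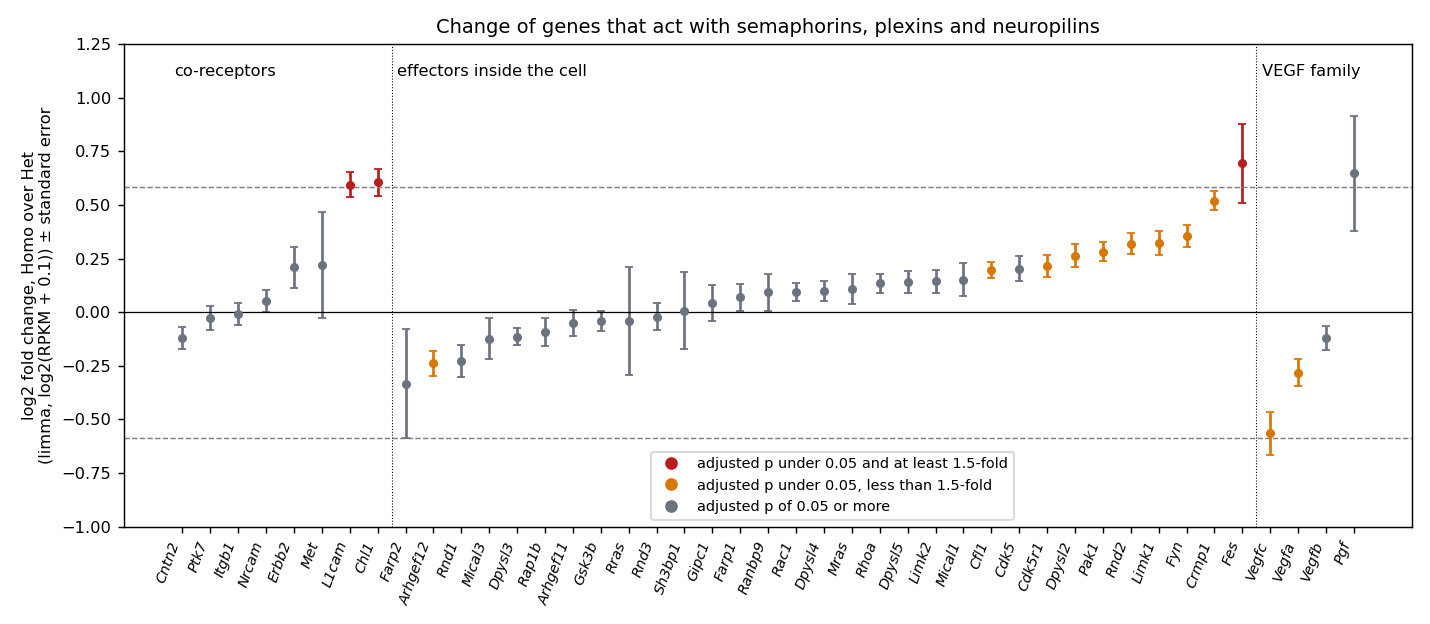
log2 fold change (Homo over Het, on log2(RPKM + 0.1)) with its standard error for the 8 co-receptors, 31 effectors and 4 VEGF genes tested, each list in rising order; dashed lines mark 1.5-fold and colours the calls. L1cam, Chl1 and Fes lie above the upper line with an adjusted p under 0.05, and no gene lies below the lower line with one.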

How the data were processed

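RNA-seq of GFP+ cells sorted from E11.5 mouse neural tubes was analysed as deposited. The authors aligned reads with TopHat2 2.1.0 to mm10, counted those on any exon of a RefSeq gene with featureCounts, applied TMM normalization in edgeR 3.6.8 and deposited RPKM for 24421 genes in 4 libraries. The strand setting of the counting is not given in the sources used here. Genotype and replicate come from the labels.

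The 12046 genes averaging 1 RPKM or more in Het, Homo or both entered a two-sided test in limma 3.58.1 (lmFit, eBayes with a trend, R 4.3.3) on log2(RPKM + 0.1), a scale that understates the fold of low genes, and p-values were adjusted by Benjamini-Hochberg. To be called, a gene needed at least a 1.5-fold difference besides an adjusted p under 0.05. The procedure was tested on simulated data. Reads were recovered from the steps of RPKM, whole within 0.02 reads for 99.23% of 19200 genes above 0, and 73.4% of the lengths solved for lay within 5% of the annotated length. Depth was 12362773 to 19656706 reads per library, and read counts and the limit of 3 reads cover counting error only. Replicate libraries differed by more than sampling noise (chi-square per gene 2.54 in Het and 2.43 in Homo) and were kept apart. limma voom on these reads called 448 genes higher and 358 lower, against 440 and 322.

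Every member is named. Of co-receptors, effectors, VEGF genes and the marker lists (sorted lineage, pan-neuronal, progenitor, endothelial, neural crest and dorsal root ganglion, motor neuron, floor plate, myeloid, mesenchymal, erythroid and sex of the embryos), counts are given, with values for genes past both thresholds, while other genes of these lists were named after their values were seen. Counts and summed levels of the marker lists omit 2 genes that are not reported here. The members and lists were chosen with earlier results of these data known. Promoters and coordinates are from RefSeq on GRCm38.p6 (Python 3.11.15, pandas 2.3.3, numpy 2.4.6, matplotlib 3.10.9). Alternatives were other pseudocounts, no filter, median ratio scaling, quantile normalization, no trend, an unadjusted p, the replicate number as a block, voom on reads, and leaving out each library. Those of the summed levels, of *Prdm13* and of genes outside the family were chosen after seeing the data.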

Additional observations from a re-analysis of the deposited data

How the results depend on the processing

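The 2 members called lower became 0 with a pseudocount of 1 and 0 to 2 when a library was left out, where the members past the adjusted p numbered 1 to 2 higher and 1 to 3 lower and all genes called 258 to 437 higher and 212 to 266 lower. The median log2 fold change of the ligands was -0.0182 with no filter on RPKM, which brings in the 5 scarce ligands, against 0.07, and that of the receptors was 0.0806 with quantile normalization and 0.0763 to 0.145 with a library left out, against 0.11. Values near 0 changed sign for *Plxnb2* (-0.0248 with quantile normalization, and -0.0212 to 0.0396 with a library left out, negative without Het replicate 1 and without Homo replicate 2) and *Sema4d* (-0.136 to 0.0016 with a library left out, positive without Het replicate 1). The causes were not tested. In limma voom on the recovered reads *Sema4b*, *Sema6a* (adjusted p = 0.00756) and *Plxnc1* passed beside the 8 that had passed before. Leaving out a library leaves 1 in its genotype, whose spread is then taken from the other genotype. The scaling alternatives moved the median of all genes by less than 0.02 on the log2 scale.

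Over all genes tested, same-numbered libraries deviated together only weakly (correlation 0.0475). With 2 libraries per genotype this value cannot settle whether the replicate numbers pair libraries. The replicate number as a block lowered the SE of some members (*Plxna3* from 0.062 to 0.0422, *Sema6c* from 0.0598 to 0.0376). It raised that of others (*Nrp1* from 0.118 to 0.13, *Plxna4* from 0.13 to 0.143). With the replicate number as a block, 0 members were called higher and 2 lower, 4 rose and 5 fell at the adjusted p (*Sema4b* added, adjusted p = 0.0257), and 459 genes were called higher and 342 lower. With 2 libraries of 1 pool per genotype, no value here holds the variation between embryos, and members under 1 RPKM were left untested by the filter.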
